A study of Mus musculus with 8 samples.

Results

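The genes described here are 9 of the 56575 features in a table of normalised gene expression from mouse hippocampus. They are 5 genes of antigen presentation by MHC class I (B2m, H2-K1, H2-D1, Tap1 and Tapbp) and 4 genes of the interferon response (Ifit1, Ifit3, Irf7 and Isg15). Each was taken by its symbol, and each symbol had 1 row. The table compares hippocampi of C57BL/6 mice at 8 weeks of age: 4 libraries labelled Slm2KO and 4 libraries labelled WT. Slm2KO names a loss of SLM2, the product of Khdrbs3, an RNA-binding regulator of splicing. The sources used here do not give the allele, the cells in which it acts or the sex of the animals. Both overall expression and splicing were of interest to the study; expression is described here. Libraries are named below by their label and replicate number, as in Slm2KO 3.

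MHC class I molecules display peptides from inside the cell on its surface. A heavy chain, such as the products of H2-K1 and H2-D1, pairs with beta-2 microglobulin, the product of B2m. Peptides enter the endoplasmic reticulum through the TAP transporter, of which Tap1 encodes a subunit, and tapasin, the product of Tapbp, holds the empty class I molecule at that transporter. Interferons switch on a large set of defence genes through dedicated transcription factors, the IRF family among them, and class I genes belong to that set. In the brain, class I and interferon genes are active at a low level without infection, with endothelial cells and microglia among the sources, and class I proteins are also known in neurons, where they take part in synapse remodelling.

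The libraries held 104020058 to 125985224 reads recovered from the deposited values, and libraries of the same label differed by more than counting noise. Markers of hippocampal neurons were abundant in every library, with a summed normalised read count of 324080 to 434920 in the Slm2KO libraries and 356920 to 419680 in the WT libraries. Khdrbs3 itself did not show a loss under the Slm2KO label: it had 29676, 33366, 30022 and 25932 in Slm2KO 1 to 4, against 20662, 23542, 19457 and 24544 in WT 1 to 4. Each Slm2KO library thus lay above each WT library, without passing adjustment (log2 fold change 0.43, limma adjusted p = 1.00). A value for the whole gene cannot show loss of part of it, so each direction below refers to the labels. Other differences crossed the labels: choroid plexus markers summed to 391490 to 2349600 in Slm2KO and 230260 to 1859200 in WT, and reads of Y-linked genes were present in Slm2KO 3, Slm2KO 4 and WT 4. Nothing in the labels ties each library to its own animal, so the p-values reflect only how far these samples spread.

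None of the 9 genes passed the test between Slm2KO and WT. The test was limma on log2(value + 1), adjusted by Benjamini-Hochberg over the 25667 features with a mean of at least 10, with a threshold of 0.05. By that rule 0.0039% of all features tested were called, which is 1 feature. It was Khdrbs2, higher in Slm2KO (log2 fold change 1.18, limma adjusted p = 0.0076). Of the 9 genes, 6 were lower and 3 were higher in the Slm2KO libraries, where 53.9% of all features were lower. Unadjusted p-values were below 0.05 for 2 of the 9, H2-D1 and H2-K1, against 3.52% of all features, or 1.82% with Slm2KO lower. H2-D1 and H2-K1 share sequence and had a Pearson r of 0.872 across the libraries, so they need not be 2 independent results. edgeR's quasi-likelihood test and DESeq2 on the recovered reads called 0 of the 9 as well, where edgeR called 1 feature in all and DESeq2 called 9 (0.0351%). For 7 of the 9, all but Ifit1 and Irf7, the 95% confidence interval of the fold change excluded a 1.5-fold difference in either direction; over all features tested this held for 65.7%.

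**Figure D1:**
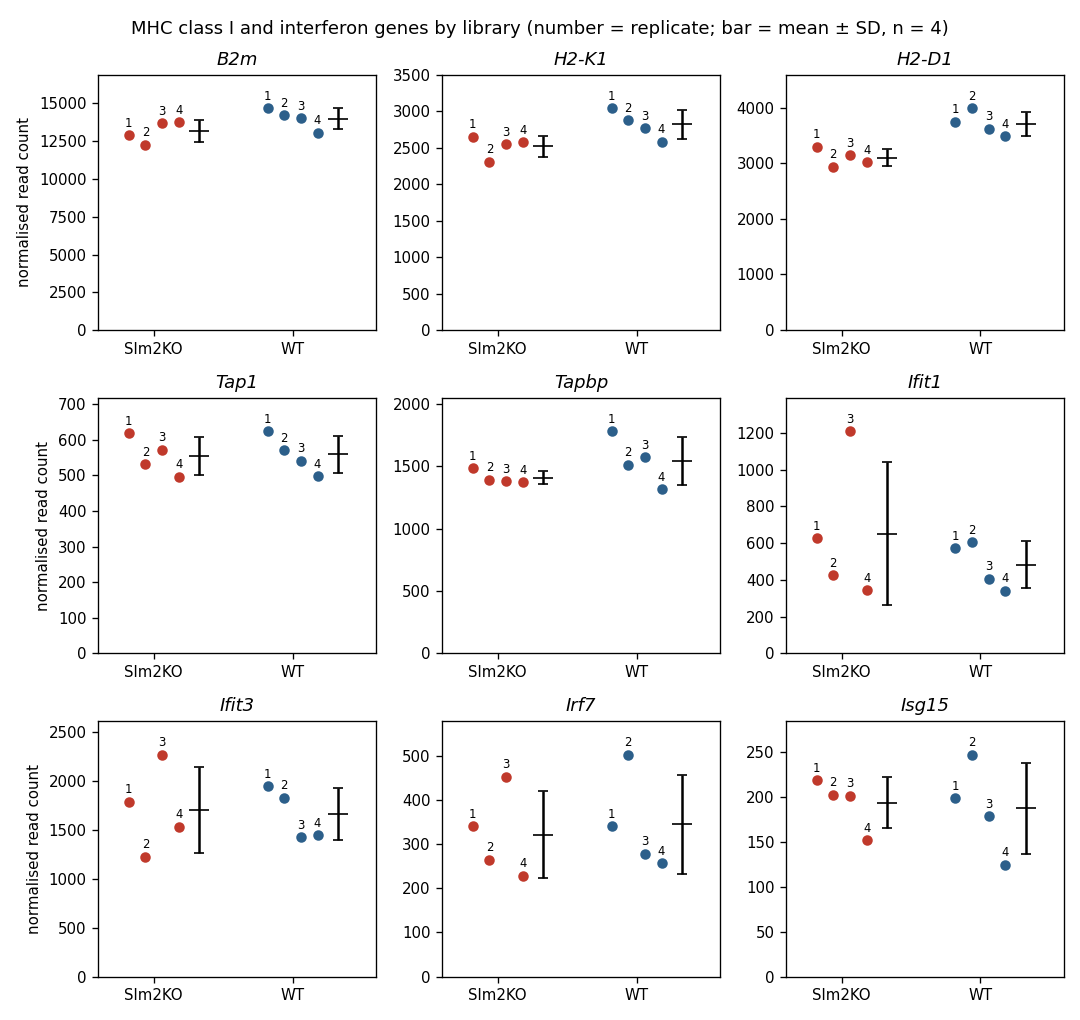
Normalised read count (vertical axis, from 0) of each of the 9 genes in the 4 Slm2KO libraries (red) and the 4 WT libraries (blue); the numbers give the replicate and the bars the mean ± SD. The groups separate for H2-D1 alone, while Slm2KO 3 stands at 1209 for Ifit1, above the other 7 libraries.

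B2m, the light chain shared by class I molecules, was the most abundant of the 9. Its normalised read count was 12913, 12283, 13718 and 13776 in Slm2KO 1 to 4, against 14694, 14212, 14019 and 13063 in WT 1 to 4. The groups overlapped, since WT 4 lay below Slm2KO 3 and Slm2KO 4. B2m lies on the plus strand of chromosome 2 (mm10, 122147685 to 122153083). It averaged 13172 ± 712 in Slm2KO and 13997 ± 685 in WT (SD, n = 4 each), with a log2 fold change of -0.09 (SE 0.057; interval 0.862- to 1.03-fold; two-sided exact permutation p = 0.143; limma adjusted p = 1.00). Without Slm2KO 2 it was -0.055. The opposite-strand gene Patl2 spans B2m, with a mean of 30.9.

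H2-D1, a classical class I heavy chain, was lower in each Slm2KO library than in each WT library. It had 3299, 2937, 3145 and 3024 in Slm2KO 1 to 4, against 3748, 3990.5, 3621 and 3483 in WT 1 to 4. H2-D1 lies on chromosome 17 (plus strand, 35263026 to 35267497). It averaged 3101 ± 157 in Slm2KO and 3710.4 ± 216 in WT (SD, n = 4 each), a ratio of 0.836 and a log2 fold change of -0.26 (SE 0.062; interval 0.760- to 0.919-fold). The difference did not pass adjustment (limma adjusted p = 1.00; DESeq2 adjusted p = 0.156). The exact permutation p was 0.0286, the smallest that 70 assignments of 4 against 4 can give. Groups did not overlap for 1 of the 9 genes, against 2.50% of all features, or 1.17% counted with Slm2KO lower. By unadjusted p (limma, 0.0018), H2-D1 ranked 21 of the 25667 features. Among so many tests, some features reach a p-value of this size without any difference, so the rank alone is not a result.

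H2-K1, the other classical heavy chain of this strain, had 2652, 2310, 2547 and 2577 in Slm2KO 1 to 4, against 3045, 2881, 2774 and 2585 in WT 1 to 4. The groups overlapped only through WT 4, which lay below Slm2KO 1. H2-K1 lies on chromosome 17 (33996013 to 34000334, minus strand), with means of 2522 ± 148 in Slm2KO and 2821 ± 193 in WT (SD, n = 4 each). Its log2 fold change was -0.16, with an SE of 0.069, and missed the threshold (exact permutation p = 0.0571; adjusted p = 1.00 by limma). Heavy-chain genes share sequence: 28.1% of the distinct 30-base stretches of H2-D1 transcripts and 24.01% of those of H2-K1 also occur in transcripts of other genes, most often each other's and those of H2-Q genes. The sources used here do not say how such reads were assigned, so the split between these loci is uncertain.

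Tapbp and Tap1 act in peptide loading, and both overlapped between the labels. Tapbp had 1486, 1393, 1382 and 1374 in Slm2KO 1 to 4, against 1782, 1514, 1573 and 1315 in WT 1 to 4. WT 1 was the highest library and WT 4 the lowest, so that the WT libraries enclosed all of the Slm2KO ones. The means were 1409 ± 52.3 in Slm2KO and 1546 ± 192 in WT (SD, n = 4 each; chromosome 17, 33919478 to 33929291, plus strand), a log2 fold change of -0.13 (SE 0.089; limma adjusted p = 1.00). This value was -0.055 without WT 1 and -0.20 without WT 4. Tap1 had 619, 532, 572 and 497 in Slm2KO 1 to 4, against 624, 571, 542 and 499 in WT 1 to 4. Its values covered the same range under both labels. Tap1 averaged 555 ± 52.7 in Slm2KO and 559 ± 52.6 in WT (SD, n = 4 each; chromosome 17, plus strand, 34187552 to 34197225). A log2 fold change of -0.01 resulted, with an interval of 0.850- to 1.16-fold, and its sign turned when Slm2KO 2, Slm2KO 4, WT 1 or WT 2 was left out.

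Most genes of the class I pathway were on the low side in the Slm2KO libraries, unevenly across libraries, and none passed the threshold. Of 24 pathway genes, 23 were tested, the 5 above included, 0 were called higher and 0 lower, and 19 had a log2 fold change below 0, against 53.9% of all features. The median was -0.13 over the 23 genes, against -0.01 over all features tested. Without the 5 genes above, 14 of 18 were below 0, with a median of -0.10. WT 1 was the highest library for 9 of the 23 (39.1%, against 11.9% of all features). Slm2KO 4 was the lowest for 9 (39.1% against 25.7%). The median log2 deviation of the 23 from their own means was -0.024, -0.060, -0.064 and -0.115 in Slm2KO 1 to 4. In WT 1 to 4 it was 0.151, 0.067, 0.010 and 0.003, so WT 3 and WT 4 lay close to 0. Groups did not overlap, with Slm2KO lower, for 2 of the 23, H2-D1 and H2-M3, against 1.17% of all features. Without the 5 genes above this was 1 of 18 (5.56%), the single gene H2-M3.

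H2-T23, which encodes the nonclassical class I molecule Qa-1, had 900.3, 795, 641 and 630.2 in Slm2KO 1 to 4, against 1215, 979, 987 and 814 in WT 1 to 4. Its groups overlapped through Slm2KO 1 and WT 4, and the log2 fold change was -0.43 (SE 0.15; exact permutation p = 0.0571). H2-M3, a nonclassical class I gene whose product presents formylated peptides, had 281, 245, 274 and 186 in Slm2KO 1 to 4, against 315, 310.02, 311 and 321 in WT 1 to 4. The WT values lay close together and each Slm2KO value lay below them, with a log2 fold change of -0.37 (SE 0.14; exact permutation p = 0.0286). Tap2, the partner subunit of TAP, was at -0.22 and Nlrc5, the transactivator of class I genes, at -0.26 on the log2 scale. The inducible proteasome subunits Psmb8, Psmb9 and Psmb10 were at -0.13, -0.20 and -0.01. The general chaperones of the loading step, Calr, Canx and Pdia3, were at -0.07, -0.04 and -0.01, and H2-T24 was at 0.27.

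**Figure D2:**
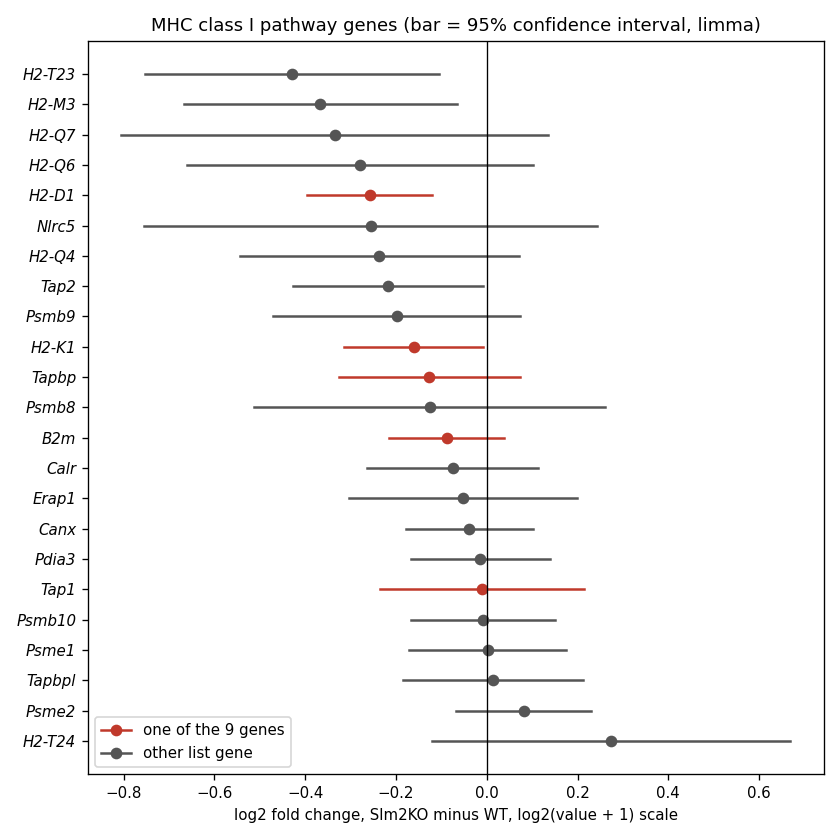
Log2 fold change (horizontal axis, Slm2KO minus WT, log2(value + 1) scale) of the 23 tested class I pathway genes, with 95% confidence intervals from limma; red marks the 5 genes described first, grey the other 18. Points run from -0.43 for H2-T23 to 0.27 for H2-T24, and no gene passed the adjusted threshold.

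Markers of several cell types, those that carry class I genes among them, also differed between libraries. The 10 endothelial markers all had a log2 fold change below 0, and their summed normalised read count was 15792 to 20344 in Slm2KO and 17754 to 23836 in WT, highest in WT 1. The sum of 12 microglia markers was 59302 to 67299 in Slm2KO and 63459 to 68247 in WT, with 9 of 12 genes below 0. Meningeal fibroblast markers summed to 9147 to 22919 in Slm2KO and 11558 to 31825 in WT, again highest in WT 1. A lean below 0 was not particular to these cells, and 53.9% of all features were below 0. Astrocytes, oligodendrocytes and mural cells each had 5 of 6 markers below 0. Hippocampal neurons had 5 of 8, perivascular macrophages 4 of 6, choroid plexus 5 of 10, and neutrophils and blood 0 of 7. The 6 T and NK cell markers with a row summed to 60.1 to 81.3 in Slm2KO and 84.0 to 118 in WT. These sums did not overlap, as held with Slm2KO lower for 1.17% of all single features. Cd4, which microglia and macrophages can also express, made up most of these sums and overlapped between the labels on its own. The defining T cell markers Cd3e and Cd3g lay between 0 and 12.2 and went opposite ways. Cd3e averaged 7.13 in Slm2KO and 3.63 in WT, and Cd3g 3.10 and 7.26. None of the markers tested passed the limma threshold; of the 6 T and NK cell markers only Cd4 had values high enough to be tested. Their part in the class I values was not tested, and in a bulk sample fewer cells of a type cannot be told apart from less RNA per cell.

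Windows before the start sites of 4 of these genes hold the letters of a known interferon element. The stretches with a match are shown here because the 9 genes differ in this match. The interferon-stimulated response element (ISRE), bound by IRF factors, was searched as GAAANNGAAA and its reverse complement TTTCNNTTTC in 300-base windows from 250 bases before the start site, as RefSeq gives them (GRCm38.p6, the assembly of mm10). All 9 genes had a window, and H2-K1 had 2. Isg15, Ifit1, Ifit3 and B2m held a match and the other 5 did not; 3.44% of all 32851 windows held 1 or more and 0.225% held 2 or more. Capitals mark the matches, and each line reads 5′ to 3′ on the gene's strand.
Isg15, chr4:156200865-156200906, minus strand: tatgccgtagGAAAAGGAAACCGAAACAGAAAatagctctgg
Ifit1, chr19:34640775-34640823, plus strand: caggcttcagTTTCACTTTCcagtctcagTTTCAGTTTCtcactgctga
Ifit3, chr19:34583363-34583426, plus strand: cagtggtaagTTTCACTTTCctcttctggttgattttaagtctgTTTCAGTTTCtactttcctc
B2m, chr2:122147538-122147567, plus strand: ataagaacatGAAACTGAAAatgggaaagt
Isg15 held 3 matches that overlap one another, beginning 78, 72 and 66 bases before the start site. Ifit1 held 2, at 104 and 85 bases, Ifit3 held 2, at 156 and 122 bases, and B2m held 1, at 139 bases. A match is a description of the letters and not a measured binding site. The search allowed no mismatch, so a window without a match can still hold a variant of the element.

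The 4 interferon-response genes varied widely between libraries of the same label, and none differed between the labels beyond that spread. Ifit1, whose product binds viral RNA, had 628, 427, 1209 and 343 in Slm2KO 1 to 4, against 573, 606, 407 and 341 in WT 1 to 4. Slm2KO 3 had the highest value, 3.55-fold that of WT 4, and the groups otherwise covered similar ranges. The means were 652 ± 391 in Slm2KO and 482 ± 128 in WT (SD, n = 4 each; chromosome 19, plus strand, 34640879 to 34650009), a log2 fold change of 0.30 (SE 0.35; interval 0.717- to 2.12-fold; exact permutation p = 0.486; limma adjusted p = 1.00). Without Slm2KO 3 it was -0.05.

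Ifit3, from the same gene cluster on chromosome 19 (34583527 to 34589036, plus strand), had 1787, 1222, 2266 and 1531 in Slm2KO 1 to 4, against 1944, 1826, 1426 and 1443 in WT 1 to 4. Both the highest and the lowest library carried the Slm2KO label, Slm2KO 3 and Slm2KO 2. The means were 1702 ± 442 in Slm2KO and 1660 ± 265 in WT (SD, n = 4 each), with a log2 fold change of 0.01 (SE 0.18). That sign turned without Slm2KO 1, Slm2KO 3, WT 3 or WT 4. Of the 30-base stretches of Ifit3 transcripts, 62.5% also occur in Ifit3b, a near-identical neighbour whose symbol matched no row used here, so the 2 genes may share these reads. Ifit1 shares 9.31% of its stretches with Ifit1bl2, and the opposite-strand feature Gm14446 spans the whole of Ifit1. Gm14446 had 571 to 717 over the 8 libraries, with 661 in Slm2KO 3, and so did not share the peak of Ifit1 in that library, though without strand the reads of these features cannot be told apart.

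Irf7, the transcription factor that amplifies the interferon response, had 341, 265, 453 and 228 in Slm2KO 1 to 4, against 340.5, 503, 278 and 257 in WT 1 to 4. Slm2KO 3 and WT 2 stood above the other 6 libraries. Irf7 averaged 322 ± 99.2 in Slm2KO and 345 ± 111 in WT (SD, n = 4 each; chromosome 7, minus strand, 141262706 to 141266424), a log2 fold change of -0.10 (SE 0.25; interval 0.636- to 1.37-fold). It was 0.10 without WT 2 and 0.05 without Slm2KO 4. Isg15, a ubiquitin-like protein that is attached to other proteins, had 218, 202, 201 and 152 in Slm2KO 1 to 4, against 198, 247, 178 and 124 in WT 1 to 4. WT 2 was highest and WT 4 lowest, and Slm2KO 3, the highest library for Ifit1 and Ifit3, lay in the middle of the order. Isg15 averaged 193 ± 28.7 in Slm2KO and 187 ± 50.6 in WT (SD, n = 4 each; chromosome 4, minus strand, 156199424 to 156200818). Its log2 fold change was 0.08 (SE 0.21), and -0.10 without WT 4.

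Relative spread within a label was given by the coefficient of variation, the SD as a percent of the mean. That of the 5 class I genes was 3.71% to 9.50% in Slm2KO and 4.89% to 12.4% in WT. For the 4 interferon genes it was 14.8% to 59.9% in Slm2KO and 15.9% to 32.3% in WT, with the highest value, 59.9%, belonging to Ifit1 in Slm2KO. Per kilobase of exon (GENCODE vM21, protein-coding basic transcripts), the level of B2m averaged 15800 normalised reads over the 8 libraries. H2-D1 and H2-K1 followed at 1620 and 1614, with ranges that overlapped, then Ifit3 at 963 and Tapbp at 510. Isg15, Ifit1, Tap1 and Irf7 averaged 251, 213, 189 and 139 per kilobase, and each overlapped the next in range, so their order is not settled. The neighbours B2m and H2-D1, H2-K1 and Ifit3, Ifit3 and Tapbp, and Tapbp and Isg15 did not overlap in range over the 8 libraries.

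Pairs of the 9 genes were compared across the 8 libraries, and 0 of the 36 pairs passed adjustment by r or by rho. Ifit1 and Irf7 had Pearson r = 0.832 (exact permutation p = 0.00598, adjusted 0.0641) and Spearman rho = 0.881 (exact permutation p = 0.00724, adjusted 0.130). Without the 2 libraries farthest from the median of Ifit1, r was 0.852, and with group means subtracted it was 0.907. This pair alone then passed adjustment. That permutation ran over all 8 libraries and made no allowance for the subtracted means, so its p-value can be too small and the pass is not relied on. Ifit1 and Ifit3 had r = 0.848 (exact permutation p = 0.00712, adjusted 0.0641) and rho = 0.690 (exact permutation p = 0.0694, adjusted 0.227), with r = 0.728 without the 2 farthest. Ifit3 and Isg15 were the least alike of the 6 interferon pairs, with r = 0.421 and rho = 0.286 (exact permutation p = 0.304 and 0.501, adjusted 0.493 and 0.622) and r = 0.766 without the 2 farthest libraries, Slm2KO 2 and Slm2KO 3.

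The 10 pairs of class I genes had r of 0.317 to 0.876, with B2m and Tap1 the lowest. H2-K1 and H2-D1 had r = 0.872 (exact permutation p = 0.00456, adjusted 0.0641) and rho = 0.929 (exact permutation p = 0.00223, adjusted 0.0804), with r = 0.893 without the 2 farthest libraries and r = 0.748 once group means were subtracted. B2m and H2-K1 had r = 0.876 (exact permutation p = 0.00434, adjusted 0.0641) and rho = 0.786 (exact permutation p = 0.0279, adjusted 0.165), but r was 0.567 without Slm2KO 2 and WT 1. H2-K1 and Tap1 had r = 0.540 (exact permutation p = 0.164, adjusted 0.328) and rho = 0.524 (exact permutation p = 0.197, adjusted 0.410), with r = 0.305 without the same 2 libraries. Between the 2 sets r ran from 0.0463 to 0.745, with a median of 0.347. Without group means subtracted, the highest value between sets belonged to Tap1 and Isg15 (r = 0.745, exact permutation p = 0.0318, adjusted 0.149; rho = 0.548, exact permutation p = 0.171, adjusted 0.385), with r = 0.786 without the 2 farthest. With them subtracted it belonged to H2-D1 and Irf7, at 0.804 against 0.486 before. Tap1 had r of 0.640 to 0.745 with the 4 interferon genes, against 0.317 to 0.718 with the other class I genes. With group means subtracted, Tap1 had 0.640 to 0.758 with the interferon genes and 0.722, 0.747 and 0.796 with H2-K1, H2-D1 and Tapbp. With B2m it stayed lower, at 0.355. Tap1 was not alone in this: with group means subtracted, H2-D1 had 0.63, 0.694, 0.804 and 0.789 with Ifit1, Ifit3, Irf7 and Isg15. Before subtraction these ran from 0.0463 to 0.486. These genes share each library's depth scaling and tissue makeup, and H2-K1 and H2-D1 share sequence.

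**Figure D3:**
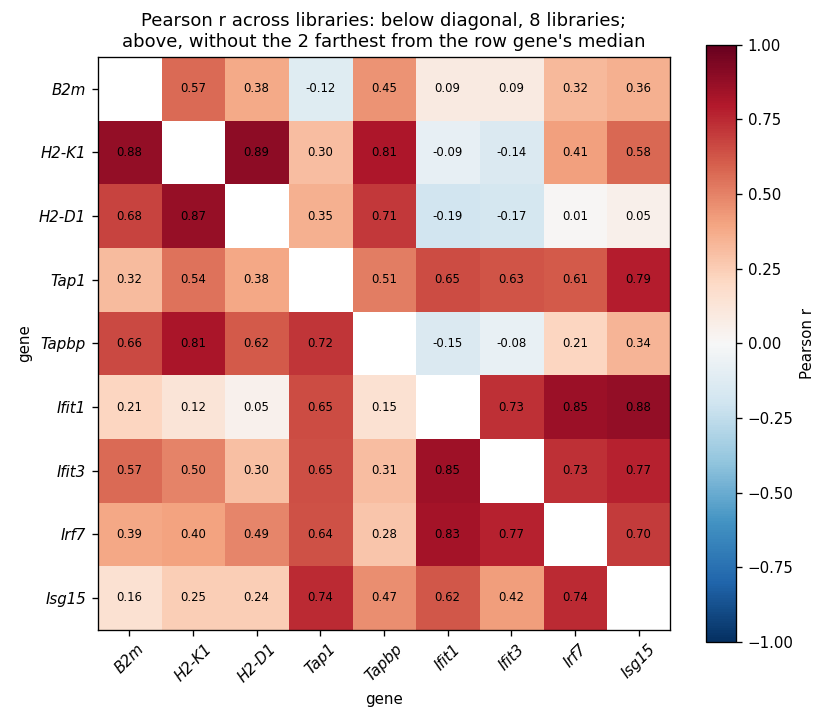
Pearson r of log2(value + 1) for each pair of the 9 genes, below the diagonal over all 8 libraries and above it without the 2 libraries farthest from the median of the row's gene. The block of the 4 interferon genes runs from 0.421 to 0.848 below the diagonal and from 0.696 to 0.875 above it.

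A wider list of 51 interferon-stimulated genes, 46 of them tested, showed which libraries had the higher values of such genes. No list gene was called in either direction; 23 were above and 23 below 0, with a median log2 fold change of 0.00, against -0.01 over all features. Leaving out the 4 genes above, 42 remained. Slm2KO 3 was the highest library for 13 of the 42 (31.0%, against 11.5% of all features), WT 1 for 11 (26.2% against 11.9%) and WT 2 for 9 (21.4% against 12.5%). Slm2KO 2 was the lowest library for 16 of the 42 (38.1% against 14.6%) and WT 4 for 11 (26.2% against 8.66%). In Slm2KO 3, 33 of the 42 lay above their own mean over the libraries, against 33 in WT 1 and 6 in WT 4. High and low libraries therefore occurred under both labels. Cell type markers also differed between these libraries, with WT 1 highest in the endothelial sum, and their part in these values was not tested.

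Rtp4, a chaperone of receptors that interferon induces, had 363, 311, 782 and 317 in Slm2KO 1 to 4, against 335, 378, 323 and 272.8 in WT 1 to 4. Usp18, which removes ISG15 from proteins, had 244, 139, 482 and 185 in Slm2KO 1 to 4, against 256, 251, 179 and 118 in WT 1 to 4. Slm2KO 3 was the highest library for both, as for Ifit1; both are named here because they are among the 3 genes most like Ifit1, so a shared peak was part of how they were chosen. The 3 list genes with the smallest p were Ifit2, Oas2 and Gbp2, at 0.12, -0.36 and -0.16 on the log2 scale (exact permutation p = 0.143, 0.257 and 0.314). Endothelial and microglia marker sums in Slm2KO 3 were 16714 and 66746, inside the range of the other libraries, and Ttr, the main choroid plexus transcript, was at 830010. Their part in the peak of Slm2KO 3 was not tested.

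**Figure D4:**
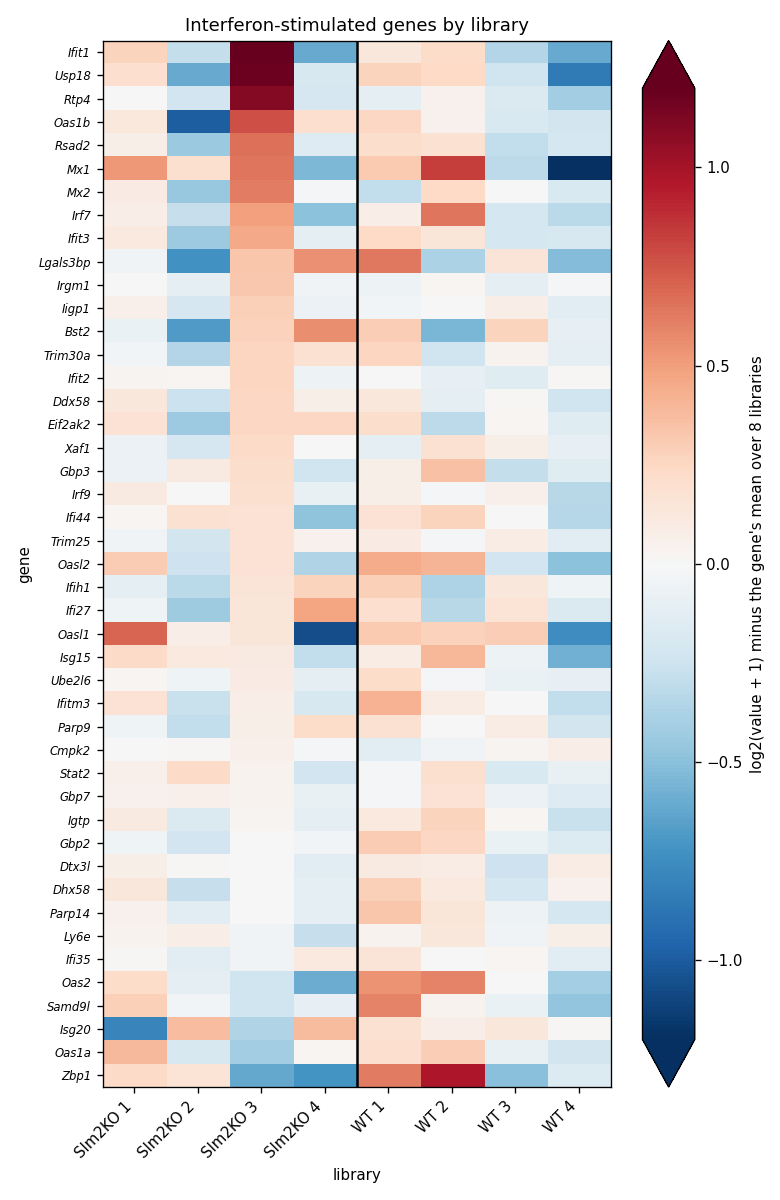
Log2(value + 1) of 45 of the 46 tested interferon-stimulated genes (rows) in each library (columns, Slm2KO left of WT), as the difference from the gene's mean over the 8 libraries; rows are ordered by Slm2KO 3. Red cells gather in Slm2KO 3, WT 1 and WT 2 and blue cells in Slm2KO 2 and WT 4, while Slm2KO 3 had the top value for 15 of the 45 genes.

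The genes whose pattern was most like each of the 9 were taken from 15592 other named genes with a mean of at least 50, as the 3 highest Pearson r over the 8 libraries; these values describe the ranking and carry no test. Ifit3 was followed most closely by Rsad2, which encodes the antiviral enzyme viperin (r = 0.982, rho = 1.00). Ifit1 was followed by Tacr1, a tachykinin receptor (r = 0.964), then Usp18 (0.932) and Rtp4 (0.928). For Isg15 the nearest were Il6ra (r = 0.951), the interferon-induced chemokine Cxcl10 (0.941) and the guanylate-binding protein gene Gbp7 (0.941). Cxcl10 had 130, 98.9, 82.9 and 34.5 in Slm2KO 1 to 4, against 91.1, 185, 48.6 and 34.5 in WT 1 to 4, with WT 2 highest as for Isg15. For Irf7 they were Cd163l1, Gm15612 and Gpld1 (r = 0.962, 0.937 and 0.924).

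For the class I set, Tap1 was followed by Tmem150a (r = 0.997), Col6a2, a collagen VI chain (0.979), and Cmbl (0.976). H2-K1 was followed by Gbgt1 (0.990), the transcription factor gene Tbx15 (0.968) and Mrvi1 (0.955), and H2-D1 by Iffo2, Bex1 and Rwdd3 (0.962, 0.958 and 0.948). Tapbp was nearest to Plekhg2 (0.972), the interferon-inducible GTPase gene Tgtp2 (0.956) and Prkd2 (0.948), and B2m to H6pd, B230216G23Rik and Plekhh2 (0.943, 0.923 and 0.922). Each value is the top of a ranking of 15592 genes over 8 libraries.

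Upstream of these genes, the interferons themselves were close to undetected. Of 9 interferon genes, 7 (Ifnb1, Ifna1, Ifna2, Ifna4, Ifnk, Ifnl2 and Ifnl3) had 0 reads in each of the 8 libraries, and a count of 0 allows up to 3 reads per library if reads are independent; since low counts here were mostly even, the true limit is higher. Ifng, the type II interferon, had 14 reads in all, with 4 in Slm2KO 4, against 4 in WT 2 and 6 in WT 3. Ifne had 4 reads, all in WT 2. Receptors and signalling genes were expressed and differed little: of 15 tested, 0 were called, 8 were below 0, and log2 fold changes ran from -0.14 to 0.11. The 3 with the smallest p were Irf3, Jak2 and Ifngr1, at -0.12, 0.07 and 0.10 (exact permutation p = 0.0857, 0.0571 and 0.143).

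Of 12 nucleic acid sensing genes, 0 were called and 9 were below 0. Mb21d1, which encodes the DNA sensor cGAS, had 160, 167, 164 and 186 in Slm2KO 1 to 4, against 119, 118, 145 and 146 in WT 1 to 4. Each Slm2KO library lay above each WT library, which holds for 1.33% of all features with Slm2KO higher, but the log2 fold change of 0.36 (SE 0.13; exact permutation p = 0.0286) did not pass adjustment. The table lists this symbol in 2 rows; the row with the higher mean was used, and the other was at 0.20. Tlr9 and Tlr7, receptors for DNA and RNA, were at -0.32 and 0.21 on the log2 scale (exact permutation p = 0.171 and 0.229).

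Class II genes, which present outside peptides on professional antigen-presenting cells, were set apart by WT 1. Cd74, the invariant chain, had 315, 128, 137 and 229 in Slm2KO 1 to 4, against 688, 246, 277 and 144 in WT 1 to 4. WT 1 was the highest library for 5 of the 7 class II genes, as it was for 4 of the 5 class I genes, H2-D1 being highest in WT 2. Of the 7, 0 were called and 6 were below 0, with log2 fold changes of -0.60 for Cd74, -0.46 for H2-Ab1 and -0.64 for Ciita (exact permutation p = 0.371, 0.400 and 0.171). Perivascular macrophage markers summed to 1505 to 2354 in Slm2KO and 1392 to 3185 in WT, also highest in WT 1; their part in the class II values was not tested. Of 7 genes for receptors and co-receptors of class I, 4 were tested and 0 called. Pirb, a class I receptor studied in neurons, was at 0.16, Klra2 at 0.20 and Cd247, the T cell receptor zeta chain, at 0.08 on the log2 scale (exact permutation p = 0.657, 0.457 and 0.800).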

How the data were processed

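RNA was extracted with Trizol from flash-frozen hippocampi and sequenced from Illumina TruSeq libraries, per the labels' protocols; that kit does not mark strand. The authors deposited 1 signal value per feature and library, a read count scaled by DESeq, per the submitters' processing notes, and not divided by length; the file header gives mm10, the notes list hg19, a human build. FastQC, Picard and SAMtools are also named, without versions. Neither the aligner nor the counting program is named there. Values were whole multiples of 1 step per library, within 0.001 of a read, so reads were recovered. The step of WT 1 was close to 1, at 1.00146. Between 1 and 12 recovered reads, 68.5% to 72.2% of values were even, where single independent reads would give no such excess; counting error is then larger than the read number implies.

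Groups came from the titles. limma (version 3.58.1, R 4.3.3; intensity-trended prior, no covariates) was fitted to log2(value + 1) for all features with a mean of at least 10, and fold changes are on that scale, which understates those of low genes. The fit was also run on simulated counts. These had the same setting for spread beyond counting noise in every feature, unlike the real data, so that run does not measure how the fit performs here. Single genes also had two-sided exact permutation tests. Alternatives used edgeR (version 4.0.16) and DESeq2 (version 1.42.0) on recovered reads, other pseudocounts, filters, TMM factors, no trend, covariates and left-out libraries. Genes outside the 9 were named by a rule: from each list the 3 with the smallest p, and for each of the 9 the 3 most alike; other list genes were chosen after their values were seen. The 9 genes and all lists were chosen with earlier results of these data known. Python 3.11.15 and matplotlib 3.10.9 were used for tables and figures. Of the list genes, 1 is counted in its list but not reported here by name.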

Additional observations from a re-analysis of the deposited data

Results flagged for a closer look

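Among 53 genes named by rule, checked in both groups of 4 libraries (106 checks), 3 libraries stood apart from the rest of their group by Dixon's test; chance flags about 1 check in 20. Rtp4 in Slm2KO 3 was at 782, where the other Slm2KO libraries had 311 to 363. Tapbp in Slm2KO 1 was at 1486, where the others had 1374 to 1393, at the margin of the test. Gbp7, a guanylate-binding protein gene, was at 1045 in Slm2KO 4, where the others had 1145 to 1166. Ifit1 in Slm2KO 3, at 1209, did not reach the limit.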

How the results depend on the processing

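The number of the 9 genes past the threshold was 0, and that of the list genes was 0, in each of the 20 alternatives. The log2 fold changes of B2m, H2-K1, H2-D1 and Tapbp were negative in all 20, with ranges of -0.12 to -0.05, -0.20 to -0.12, -0.29 to -0.21 and -0.20 to -0.06; H2-D1 was at -0.24 with Y-linked reads as a covariate, an alternative chosen after seeing the data. With 1 library left out, Tap1 ran from -0.064 to 0.045, Ifit1 from -0.054 to 0.55, Ifit3 from -0.14 to 0.16, Irf7 from -0.28 to 0.10 and Isg15 from -0.10 to 0.22. Without WT 2 and Slm2KO 4, the lowest and highest libraries in Ttr, Tap1 was at 0.054, Irf7 at 0.25, Ifit1 at 0.68 and Isg15 at 0.33. With Y-linked reads as a covariate Tap1 was at 0.028 and Ifit3 at -0.0075. The causes were not tested. Over all features, 1 was called, against 2 with a pseudocount of 10, 0 without the trend, 9 by DESeq2 and 0 to 2 with 1 library left out. With group means subtracted, 1 of the 36 pairs passed instead of 0 (Ifit1 and Irf7), by a permutation that made no allowance for the subtracted means. The replicate block left the call of every one of the 9 genes as it was (H2-D1 -0.26), with 1 feature called. Same-numbered libraries had correlations of deviations of 0.124, 0.323, -0.0654 and -0.122. Differently numbered libraries had -0.322 to 0.317. These values cannot settle whether the numbers pair the libraries. At 0 to 6 reads per library, no difference in the interferon genes themselves was detectable at this depth.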
